A study of Canis lupus familiaris with 6 samples.

Results

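The genes described here are the extracellular matrix proteinases of the array and their regulators, namely the matrix metalloproteinases (MMPs), the ADAM, ADAMTS and ADAMTSL families, the tissue inhibitors of metalloproteinases (TIMPs) with RECK, and the plasminogen activators with their receptor and inhibitors. They were chosen by gene symbol alone, as every probe that is not a control and whose symbol in the scanner files belongs to one of these families, which gave 86 probes for 58 genes among 43603 probes. RNA was taken from 3 canine mammary tumor cell lines, the anaplastic cancer line P114, a spindle cell tumor line (CMT-U309) and a simple carcinoma line (CMT-U27), each grown either alone (monoculture) or sharing medium through a tissue culture insert with myeloid-derived suppressor cells, MDSCs (co-culture). Both RNAs of a line, labelled with the red dye Cy5 and the green dye Cy3, were hybridized together to an Agilent canine oligo microarray, and a second array carried the same RNAs in the opposite dyes, so that 6 arrays with 12 channels were read. The arrays of a dye-swap hold the same pair of RNAs and were counted as 1 replicate, so that n is 3 lines for the effect of co-culture. Each line is a single established line with 1 RNA per culture condition, and the labels give at least 72 h of co-culture where the methods give a shorter time.

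These enzymes cut the proteins of the extracellular matrix and the cell surface. Most MMPs are secreted as inactive proenzymes in which a cysteine of the propeptide holds the catalytic zinc, the TIMPs block the active enzymes, and plasmin, released from plasminogen by the activators PLAU (urokinase) and PLAT (tissue type), can activate several of them. ADAMs shed growth factors and receptors from the membrane, ADAMTS enzymes cut proteoglycans and process collagens, and in mammary tumors these families are studied for their part in invasion.

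The probes behind the main results are printed 5′ to 3′ as the scanner files give them, with positions on canFam2. The collagenase and stromelysin probes are shown first because these genes separated the lines widely, and the capitals mark the longest run of bases that the MMP1 and MMP3 probes share at their best alignment.
MMP1, chr5:31994840-31994899, plus strand: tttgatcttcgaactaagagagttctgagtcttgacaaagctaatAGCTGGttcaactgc
MMP3, chr5:31966556-31966615, plus strand: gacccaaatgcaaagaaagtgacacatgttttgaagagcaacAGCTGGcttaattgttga
MMP13, chr5:31867714-31868765, plus strand: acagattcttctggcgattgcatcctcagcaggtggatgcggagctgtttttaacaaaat
MMP20, chr5:32163015-32163074, plus strand: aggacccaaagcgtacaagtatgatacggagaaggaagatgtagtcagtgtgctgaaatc
At their best ungapped alignment the MMP1 and MMP3 probes matched at 29 of 57 bases, or 50.9%. The MMP13 probe is 60 bases long and its position covers 1052 bases, so it was placed in pieces with a gap between them. MMP20 is shown because it was the member that passed the thresholds for co-culture.

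The gelatinase probes are shown because probes of the same gene gave different values. In the first MMP2 probe the capitals mark the codons of the cysteine switch, the stretch of the propeptide that keeps the proenzyme inactive. In the overlapping pair of MMP9 probes they mark the base that differs, C42G counted from 1 at the 5′ end of the first of the pair.
MMP2 propeptide probe, chr2:63373216-63373275, minus strand: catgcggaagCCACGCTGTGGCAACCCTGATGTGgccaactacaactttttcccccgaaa
MMP2 second coding probe, chr2:63370412-63370471, minus strand: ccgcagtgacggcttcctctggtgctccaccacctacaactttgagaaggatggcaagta
MMP9 first overlapping probe, chr24:36257426-36257485, plus strand: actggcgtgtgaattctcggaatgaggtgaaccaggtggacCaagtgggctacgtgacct
MMP9 second overlapping probe, chr24:36257437-36257496, plus strand: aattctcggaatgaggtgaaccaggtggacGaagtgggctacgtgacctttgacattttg
MMP9 upstream probe, chr24:36250789-36251334, plus strand: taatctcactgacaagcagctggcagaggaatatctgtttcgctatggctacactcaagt
The overlapping pair matched at 48 of 49 bases, so the readings of these probes are not independent of each other.

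Probes of PLAU, PLAUR and TIMP1 are shown because CMT-U27 was the lowest line for each. No part of these probes is in capitals.
PLAU, chr4:27543152-27543561, plus strand: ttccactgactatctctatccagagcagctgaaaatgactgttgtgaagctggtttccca
PLAUR, chr1:114382506-114382565, plus strand: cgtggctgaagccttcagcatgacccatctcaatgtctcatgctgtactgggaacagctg
TIMP1, chrX:41152522-41152580, plus strand: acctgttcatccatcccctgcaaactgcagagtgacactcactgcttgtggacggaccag
Over all pairs of probes of different members, compared without gaps over 50 or more bases, the most alike were those of ADAMTS10 and ADAMTS6, with 43 of 55 bases the same (78.2%).

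The share of spots well above background, a call made by the scanning software, lay between 53.0% and 81.0% of spots per channel. It was lower in the co-culture channel on every array except array 1 of P114 (65.4% against 55.2% in monoculture). The gap was widest on array 2 of CMT-U309 (53.0% against 75.3%), and it bears on the detection of dim probes. The log2 ratios of co-culture over monoculture, both arrays turned the same way, correlated across probes at -0.39 between the dye-swap arrays of P114, at 0.26 for CMT-U27 and at -0.09 for CMT-U309. Results on co-culture are given with and without P114, the line with the lowest value. The arrays of CMT-U309 did not agree either, so leaving out P114 does not remove this limit. Each line was on a slide of its own, and line and slide cannot be told apart. Markers of epithelial and mesenchymal cells separated the lines. Of 6 epithelial markers with a probe, 5 were higher in CMT-U27 than in CMT-U309 and 5 higher than in P114. The remaining one, KRT14, was above background in all 12 channels and went the other way. Its log2 difference was -1.53 for CMT-U27 minus CMT-U309 and 0.81 for P114 minus CMT-U27. KRT14 was the highest of the 6 in P114 (11.9) and in CMT-U309 (12.6), so the epithelial sums below mostly reflect it there. Under the call rule given below, 3 epithelial markers were higher in P114 than in CMT-U309 and 0 were lower. These were KRT19, EPCAM and CLDN7, with log2 differences of 4.96, 2.50 and 2.19. Of 8 mesenchymal markers, 6 were lower in CMT-U27 than in each of the others, with COL1A1, COL3A1 and DCN above background in 1 of its 4 channels. The remaining ones, PDGFRB and THY1, were above background in all 12 channels and were not called against CMT-U27. For P114 minus CMT-U27 the log2 difference was 0.94 for PDGFRB and -0.53 for THY1, and for CMT-U27 minus CMT-U309 it was 0.07 and -0.11. The log2 of the summed epithelial levels per channel ran from 16.7 to 17 in CMT-U27, from 12.1 to 12.5 in P114 and from 12.1 to 12.9 in CMT-U309, and that of the mesenchymal levels from 12.9 to 13.4 in CMT-U27, from 18.1 to 18.6 in P114 and from 18.8 to 19.1 in CMT-U309.

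Not all members were measurable in these cells. A gene is represented here by its brightest probe, and its level is the log2 processed signal after every channel was scaled to a common median, averaged over the Cy5 and Cy3 channels of the same RNA. Of the 58 genes, 22 (37.9%) were well above background in all 12 channels, 24 in some channels and 12 (20.7%) in none. Over all 35581 gene names on the array the corresponding shares were 44.7% and 15.4%. All 4 channels of a line were above background for 32 members in CMT-U309, 29 in P114 and 27 in CMT-U27.

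The 12 members without a channel above background were ADAM7, ADAM18, ADAM21, ADAM29 and ADAM32, most of them known from testis or epididymis, the secreted proteinase genes ADAMTS7, ADAMTS18 and ADAMTS20, the matrilysins MMP7 and MMP26, the macrophage elastase MMP12 and the enamel proteinase MMP20. For these genes only a bound exists and no fold is given. Both matrilysins were among them, whereas PLAU, PLAUR, PLAT and SERPINE2 of the plasminogen activator system were above background in all 12 channels. Of the 4 inhibitors on the array, TIMP1, TIMP2 and TIMP3 were above background throughout, and RECK, a membrane-anchored inhibitor of MMPs, in 2 of 4 channels of P114, 1 of CMT-U27 and 3 of CMT-U309. Of 6 ADAMs with a zinc-binding motif in the catalytic site, 4 were above background in all 12 channels (ADAM9, ADAM10, ADAM15 and ADAM17), against 2 of 7 without it (ADAM11 and ADAM23).

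The lines differed in which proteinases they held, and the difference was wide in the interstitial collagenases, which cut fibrillar collagen. MMP1 was high in P114, intermediate in CMT-U309 and not above background in CMT-U27, while MMP13 was high in P114, lower in CMT-U27 and not above background in CMT-U309. Lines were compared with limma on 6 RNA samples (3 lines in 2 cultures, with culture as a covariate), and a member was called where its Benjamini-Hochberg adjusted p over 40873 probes was under 0.05, its fold over 2 and all 4 channels of the higher line above background. The spread in this test is that between the cultures of a line on one slide, which may be partly technical. In bulk RNA, fewer expressing cells and less RNA per cell cannot be told apart.

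The log2 level of MMP1 was 10.61 in monoculture and 10.63 in co-culture of P114, 1.90 and 2.56 in CMT-U27, and 7.71 and 6.44 in CMT-U309. No channel of CMT-U27 was above background, and its levels did not overlap with those of the other lines. MMP1 was at least 106-fold higher in P114 than in CMT-U27 (limma adjusted p = 7.28e-08) and at least 9.27-fold higher in CMT-U309 than in CMT-U27 (adjusted p = 3.33e-06). Such a bound sets the brighter line against the lowest signal that counts as well above background in each dim channel, after Aquantile normalization. That signal is not a limit of detection. In the co-culture channel of array 2 of CMT-U27, an ADAMTS2 probe at 5.30 was not well above background while an ADAM22 probe at 4.89 was. Here and below, at least is meant relative to this floor and is not a strict lower limit. P114 exceeded CMT-U309 by 3.54 ± 0.37 (log2 difference ± SE), an 11.7-fold difference (adjusted p = 7.33e-05). The bounds were taken from the processed signals only. With normexp background correction, loess and Aquantile, which adds an offset of 50 to every signal, the log2 difference was 3.29 for P114 minus CMT-U27, where the bound is 6.72, and -1.06 for CMT-U27 minus CMT-U309.

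MMP13, a collagenase also known from cartilage and carcinoma stroma, had log2 levels of 11.80 and 11.51 in monoculture and co-culture of P114, 6.12 and 7.17 in CMT-U27, and 1.26 and 2.23 in CMT-U309. Here CMT-U309 was the line without a channel above background, the opposite of MMP1, and the 3 lines did not overlap. P114 was at least 343-fold higher than CMT-U309 (limma adjusted p = 1.55e-08), CMT-U27 at least 10.3-fold higher than CMT-U309 (adjusted p = 8.4e-07), and P114 was 32.2-fold higher than CMT-U27 (log2 difference 5.01 ± 0.31, adjusted p = 8.25e-07). With normexp, loess and Aquantile the log2 differences were 4.33 for P114 minus CMT-U309, where the bound is 8.42, 0.75 for CMT-U27 minus CMT-U309, no longer called, and 3.58 for P114 minus CMT-U27.

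MMP3 (stromelysin-1), which cuts proteoglycans and activates other MMPs, followed the order of MMP1. Its log2 levels were 9.62 and 9.20 in P114, 3.20 and 3.43 in CMT-U27, where 1 of 4 channels was above background, and 7.06 and 7.0 in CMT-U309. P114 was 5.19-fold above CMT-U309 (log2 difference 2.38 ± 0.22, limma adjusted p = 3.18e-05). Against CMT-U27 the difference was called (adjusted p = 1.84e-08), but its size rests on signals near background in CMT-U27, with a log2 difference of 6.09 from the processed signals and 2.58 with normexp, loess and Aquantile. The other stromelysin on the array, MMP11, was above background in 2, 1 and 3 of 4 channels of P114, CMT-U27 and CMT-U309 and was called in no comparison of lines.

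MMP1, MMP3 and MMP13 are among 7 MMP members with a probe that lie in a row on chromosome 5 of canFam2. The probes span 335 kb from 31867714 to 32203060 in the order MMP13, MMP12, MMP3, MMP1, MMP27, MMP20 and MMP7. Genes of this stretch without a member probe are not seen here. The other members of the row were dim. MMP12, MMP20 and MMP7 were above background in no channel and MMP27 in 1 channel of CMT-U309.

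**Figure D1:**
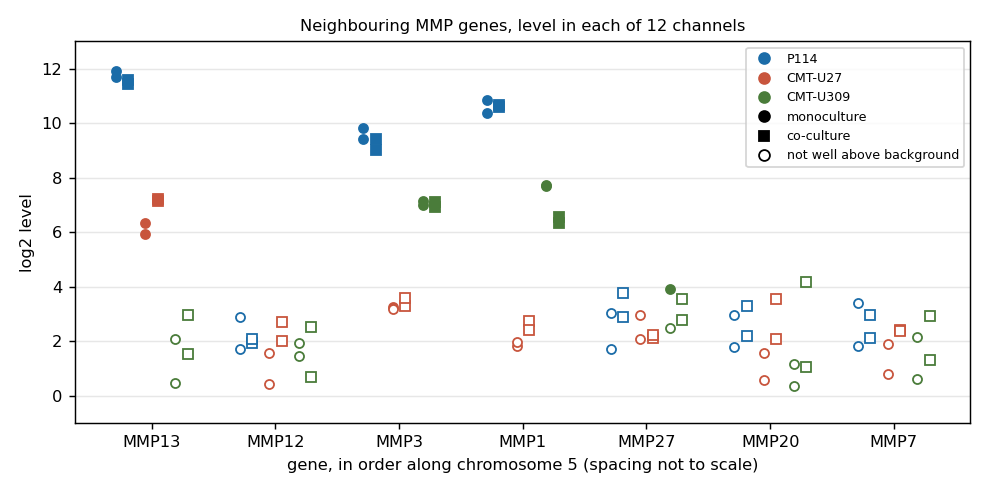
Log2 level (processed signal, channels scaled to a common median) of 7 neighbouring MMP genes in each of the 12 channels, by line and culture, with open symbols where the spot was not well above background. MMP13, MMP3 and MMP1 were above background in all 4 channels of P114, MMP13 also in CMT-U27 and MMP3 and MMP1 in CMT-U309. The other genes shown were dim in nearly all channels.

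The gelatinases, which cut denatured collagen and basement membrane collagen, did not follow that order. The second overlapping MMP9 probe, the brightest of 5 for the gene, had log2 levels of 5.66 and 4.90 in monoculture and co-culture of P114, 6.66 and 7.80 in CMT-U27, and 2.65 and 2.88 in CMT-U309. CMT-U27 was the highest line and CMT-U309 had no channel above background. CMT-U27 was at least 14.0-fold above CMT-U309 (limma adjusted p = 9.84e-06) and 3.86-fold above P114 (log2 difference between P114 and CMT-U27 -1.95 ± 0.40, adjusted p = 0.003). The first overlapping probe gave the same order, with P114 lower than CMT-U27 by 2.09 ± 0.37. The upstream MMP9 probe printed above and one more probe of the gene were above background in no channel of any line, and the remaining probe was in 5 of 12, so the call rests on the overlapping pair. Taken as the median over its probes, MMP9 was called in neither comparison (log2 differences -0.76 and 2.37).

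MMP2 (gelatinase A) depended on the probe. The second coding probe, the brightest, had log2 levels of 6.72 and 6.72 in P114, 6.92 and 6.46 in CMT-U27, and 7.21 and 7.21 in CMT-U309, and was called in no comparison. The probe over the cysteine switch had levels of 2.65 and 2.27 in P114, 1.96 and 2.63 in CMT-U27, and 6.19 and 6.27 in CMT-U309, and only CMT-U309 was above background, at least 3.71-fold over P114 (limma adjusted p = 6.15e-05) and at least 5.02-fold over CMT-U27 (adjusted p = 1.86e-05). A further MMP2 probe, above background in all 12 channels, was 7.43-fold higher in CMT-U309 than in P114 and 8.05-fold higher than in CMT-U27. The most intense probe is therefore the one of the 3 with the smallest difference between lines.

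Among the membrane-type MMPs, which act at the cell surface, MMP14 (MT1-MMP, an activator of MMP2) had log2 levels of 5.91 and 5.86 in P114, 4.90 and 5.39 in CMT-U27, and 6.70 and 6.74 in CMT-U309. CMT-U309 exceeded CMT-U27 by 2.99-fold (limma adjusted p = 0.000362), and P114 lay between them without passing the fold threshold against either. MMP16 was 2.24-fold higher in CMT-U309 than in CMT-U27, and MMP15 went the other way, 3.48-fold higher in CMT-U27 than in CMT-U309, where 2 of 4 channels were above background. MMP17 and MMP24 were above background in part of the channels and were not called.

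Of the other MMPs, MMP19 had log2 levels of 7.62 and 7.38 in P114, 5.65 and 5.56 in CMT-U27, and 7.98 and 8.31 in CMT-U309, and was 3.72-fold higher in P114 and 5.81-fold higher in CMT-U309 than in CMT-U27. MMP23B was 2.21-fold lower in P114 than in CMT-U27. MMP28 was above background in all 12 channels and was called in no comparison, with line means that differed by at most -0.22 on the log2 scale (P114 minus CMT-U309, SE 0.23). A dimmer MMP28 probe was above background in 3 of 4 channels of CMT-U309 and 1 of the other 8, and no line reached the 4 channels that a call needs.

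The plasminogen activator system set CMT-U27 apart. PLAU, PLAUR and SERPINE2 were higher in P114 than in CMT-U27 and higher in CMT-U309 than in CMT-U27. PLAU had log2 levels of 11.35 and 11.20 in monoculture and co-culture of P114, 6.24 and 6.67 in CMT-U27, and 8.19 and 8.80 in CMT-U309. The lines did not overlap, and P114 was 28.2-fold above CMT-U27 (log2 difference 4.82 ± 0.20, limma adjusted p = 3.99e-08) and 6.88-fold above CMT-U309 (2.78 ± 0.20, adjusted p = 4.27e-06). A second PLAU probe gave 20.6-fold and 7.43-fold.

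PLAUR, the receptor that holds urokinase at the cell surface, had log2 levels of 10.04 and 10.01 in P114, 5.98 and 6.05 in CMT-U27, and 10.25 and 10.81 in CMT-U309. It was 16.1-fold higher in P114 (limma adjusted p = 7.5e-08) and 22.9-fold higher in CMT-U309 (adjusted p = 2.94e-08) than in CMT-U27, while P114 and CMT-U309 differed by -0.50 ± 0.18 (adjusted p = 0.059).

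SERPINE2 (protease nexin-1), an inhibitor of urokinase and thrombin, had log2 levels of 12.43 and 12.29 in P114, 9.13 and 9.11 in CMT-U27, and 13.32 and 13.38 in CMT-U309. P114 was 9.42-fold (log2 difference 3.24 ± 0.13, limma adjusted p = 4.26e-08) and CMT-U309 18.7-fold (adjusted p = 5.86e-09) above CMT-U27, and the lines did not overlap.

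PLAT was the exception. Its log2 levels were 10.41 and 10.78 in P114, 10.47 and 10.87 in CMT-U27, and 8.63 and 9.0 in CMT-U309. CMT-U309 was the low line, 3.44-fold below P114 (limma adjusted p = 7.35e-06) and 3.62-fold below CMT-U27 (adjusted p = 2.35e-06), and P114 and CMT-U27 overlapped (log2 difference -0.07, adjusted p = 0.692). A second PLAT probe, shifted by 2 bases, gave 3.66-fold and 3.71-fold.

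The TIMPs went different ways. TIMP1 had log2 levels of 15.22 and 15.15 in P114, 11.24 and 11.37 in CMT-U27, and 14.35 and 14.42 in CMT-U309, and was 14.7-fold higher in P114 (log2 difference 3.88 ± 0.14, limma adjusted p = 1.41e-08) and 8.46-fold higher in CMT-U309 (adjusted p = 6.22e-08) than in CMT-U27. The TIMP1 probe printed above, dimmer than the one that represents the gene, gave 18.4-fold and 9.79-fold. TIMP3, which binds to the matrix and also inhibits ADAM17, ran against TIMP1 in P114. Its levels were 10.39 and 10.19 in P114, 12.22 and 12.09 in CMT-U27, and 12.87 and 12.80 in CMT-U309. P114 was the low line at all 4 TIMP3 probes, and at the brightest one it was 3.64-fold below CMT-U27 (adjusted p = 2e-06) and 5.85-fold below CMT-U309 (adjusted p = 4.24e-07).

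TIMP2 lay close together in the 3 lines, at 9.57 and 9.40 in P114, 9.69 and 10.26 in CMT-U27, and 9.90 and 10.04 in CMT-U309, and was called in no comparison (limma adjusted p between 0.0527 and 0.98). A dimmer TIMP2 probe, above background in 1 of 4 channels of P114 and of CMT-U27 and in all 4 of CMT-U309, was 4.17-fold higher in CMT-U309 than in CMT-U27 and 2.21-fold higher than in P114. Its position is given on the minus strand and that of the brightest TIMP2 probe on the plus strand, so it may not read the same transcript. RECK had levels of 4.45 and 4.80, 3.59 and 2.63, and 5.37 and 5.68. It was not called, since no line was above background in all 4 of its channels.

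**Figure D2:**
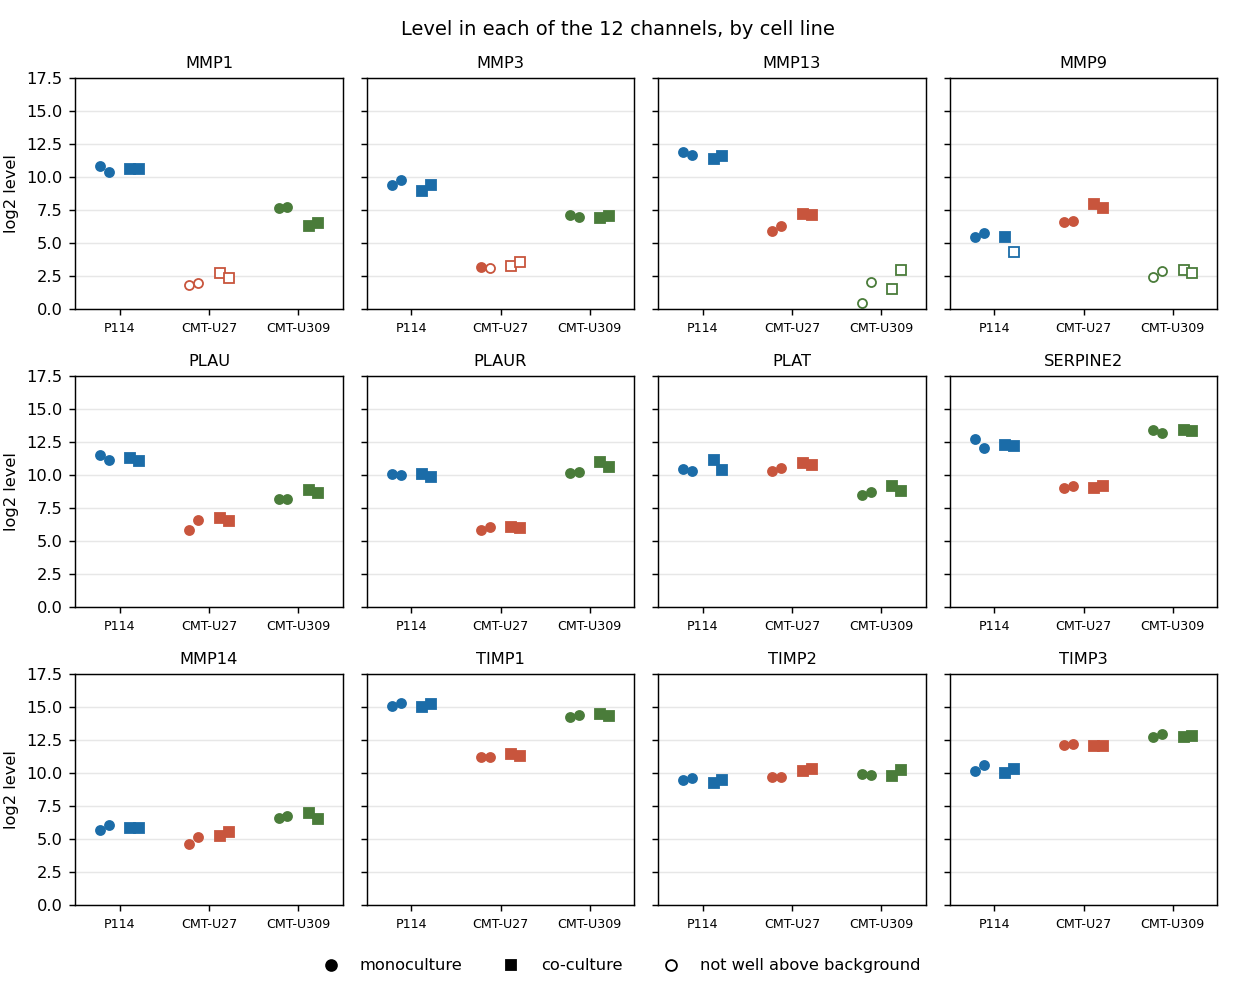
Log2 level of 12 members in each of the 12 channels, by line, with circles for monoculture, squares for co-culture and open symbols where the spot was not well above background. CMT-U27 lies lowest for MMP1, MMP3, PLAU, PLAUR, SERPINE2, MMP14 and TIMP1, CMT-U309 for MMP13, MMP9 and PLAT, and P114 for TIMP3.

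Among the ADAMs, the sheddases were present in every line and differed by small factors. ADAM17 (TACE, which releases TNF and ligands of the EGF receptor) was 2.07-fold higher in P114 and 2.27-fold higher in CMT-U309 than in CMT-U27, and ADAM15 was 2.45-fold higher in P114 than in CMT-U27. ADAM9 and ADAM10 were called in no comparison at their brightest probes, though the dimmest of 4 ADAM10 probes was called, 2.6-fold higher in CMT-U309 than in CMT-U27 and 2.07-fold higher than in P114. ADAM19 was the exception, with log2 levels of 3.30 and 3.20 in P114, 3.11 and 2.38 in CMT-U27, and 5.98 and 6.32 in CMT-U309. Only in CMT-U309 was it above background in all 4 channels, at least 3.53-fold over P114, where none was (limma adjusted p = 0.000228). It was also called over CMT-U27 (adjusted p = 3.25e-05), where 1 of 4 channels was above background, so no fold is given. With normexp, loess and Aquantile neither call was kept, and the log2 differences were -0.59 and -0.58. Of the ADAMs without the zinc-binding motif, ADAM11 was 2.37-fold higher in CMT-U309 than in CMT-U27.

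Of 13 ADAMTS genes, 2 (ADAMTS4 and ADAMTS5) were above background in all 12 channels. ADAMTS5, an aggrecanase, had log2 levels of 7.62 and 7.52 in P114, 6.53 and 6.51 in CMT-U27, and 8.57 and 8.89 in CMT-U309, and all 3 differences between lines were called, from 2.07-fold to 4.63-fold. ADAMTS6 was above background in 3, 0 and 4 channels of P114, CMT-U27 and CMT-U309, at least 7.66-fold higher in CMT-U309 than in CMT-U27 (limma adjusted p = 5.96e-07) and 4.29-fold higher than in P114 (adjusted p = 0.000461). ADAMTS2, which processes procollagen, was 3.69-fold higher in CMT-U309 than in CMT-U27. ADAMTS10 was called higher in P114 than in CMT-U27 at its brightest probe and ADAMTS14 higher in CMT-U309 than in P114, with 2 and 1 of 4 channels above background in the lower line. ADAMTSL3, a secreted relative of the ADAMTS enzymes without a protease domain, was low in one line, with log2 levels of 4.50 and 5.06 in P114, 9.19 and 8.80 in CMT-U27, and 8.32 and 8.35 in CMT-U309. P114 was 18.6-fold below CMT-U27 (adjusted p = 3.66e-07) and 11.8-fold below CMT-U309 (adjusted p = 2.53e-06). The second probes of ADAMTS10 and ADAMTSL3 were not above background in P114 and were not called.

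**Figure D3:**
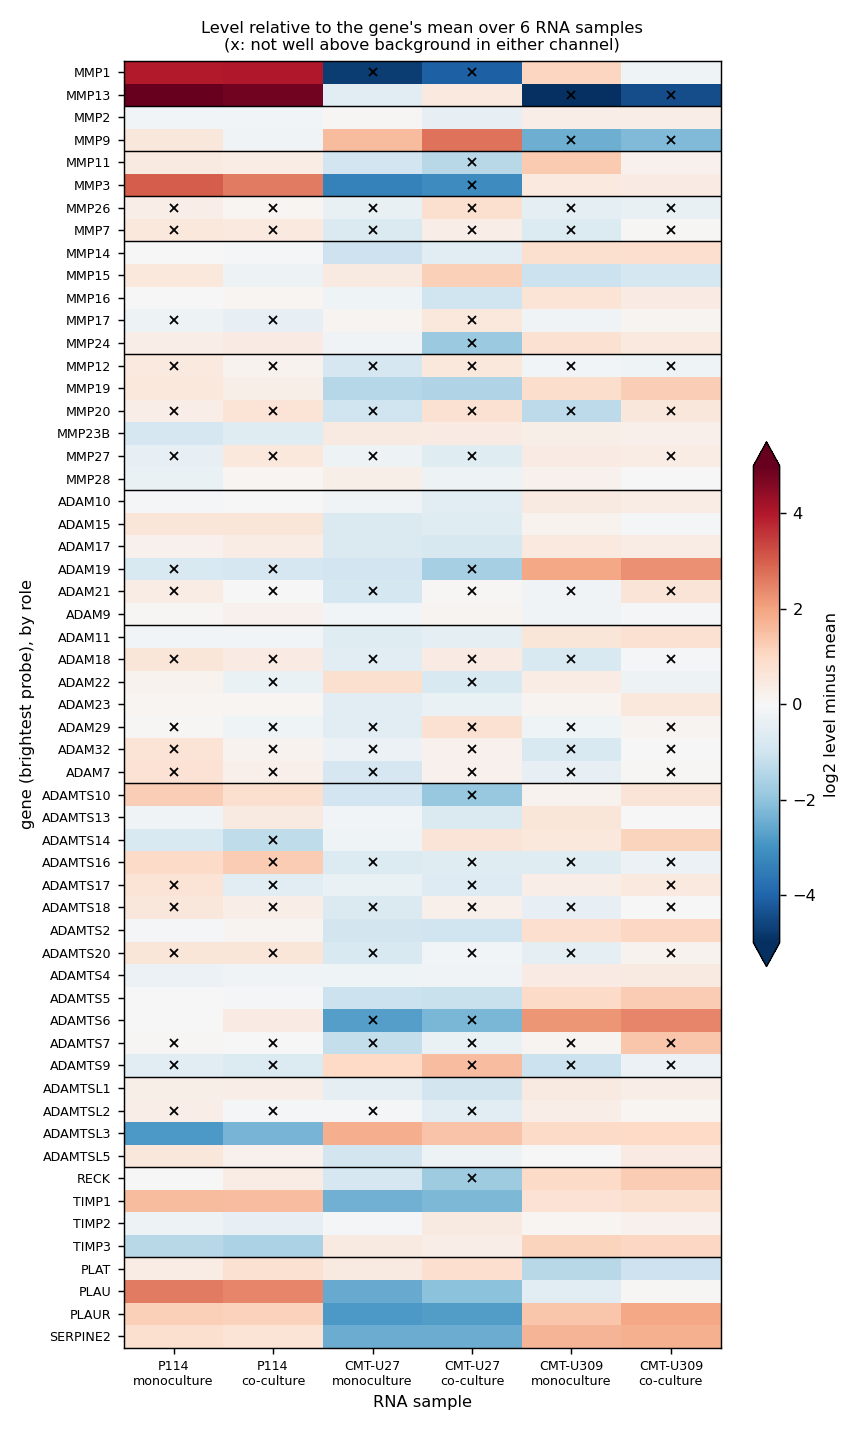
Log2 level of the brightest probe of 57 members in the 6 RNA samples minus the gene's own mean over them, in colour, with members grouped by role and a cross where neither channel of an RNA sample was well above background. MMP1, MMP3, TIMP1, PLAU, PLAUR and SERPINE2 are low in both CMT-U27 samples, and the rows of crosses are the 12 members without a channel above background and those measurable in part of the lines.

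Counted over the members, 54 of the 58 passed the filter on low intensity (a scaled signal over 10 in at least 1 channel), and 27 of these (50.0%) were called in at least 1 comparison of lines, as were 30.4% of all probes. In P114 against CMT-U27, 14 members (25.9%) were higher in P114 and 4 (7.41%) higher in CMT-U27, where the shares over all probes were 7.75% and 11.3%, or 19.0% in either direction. In CMT-U27 against CMT-U309, 4 members (7.41%) were higher in CMT-U27 and 17 (31.5%) higher in CMT-U309, against 14.2% and 8.29% of all probes (22.4% together). In P114 against CMT-U309, 5 members (9.26%) were higher in P114 and 6 (11.1%) higher in CMT-U309, against 6.14% and 4.95% (11.1% together). Members are counted by their brightest probe and the background by all probes. The median log2 difference over the tested members was 0.64 for P114 minus CMT-U27, -0.19 for P114 minus CMT-U309 and -0.75 for CMT-U27 minus CMT-U309, beside 0.15, 0.15 and 0.04 over all probes. In the comparisons with CMT-U27, the summed mesenchymal markers given above moved with the counts and the summed epithelial markers against them. Among the epithelial markers KRT14 was the exception. Between P114 and CMT-U309 the summed epithelial levels overlapped, while KRT19, EPCAM and CLDN7 were higher in P114. The part of these markers in the differences was not tested.

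With normexp, loess and Aquantile in place of the processed signals, the counts were 9 and 2 for P114 against CMT-U27, 2 and 11 for CMT-U27 against CMT-U309, and 5 and 4 for P114 against CMT-U309. Among the named genes, the calls lost under it were those of ADAMTS10 and MMP9 in P114 against CMT-U27, ADAM19, ADAMTS6 and ADAMTS14 in P114 against CMT-U309, and ADAM19, ADAMTS6, MMP3, MMP13 and MMP14 in CMT-U27 against CMT-U309. The call of MMP9 in CMT-U27 against CMT-U309 stayed with a log2 difference of 1.11, below its bound of 3.81, and those of ADAMTSL3 with -1.79 for P114 minus CMT-U27 and -1.35 for P114 minus CMT-U309, in place of -4.22 and -3.56. ADAMTS14 also lost its call when array 1 of P114 was left out (-1.64), and ADAMTS10 with the median over its probes (1.09).

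Of the genes listed as working with these proteinases (activating convertases, plasminogen receptors, other protease inhibitors, cathepsins and regulators of transcription), 47 of 53 had a probe and all 47 were tested. Against CMT-U27, 10 were higher in P114 and 12 in CMT-U309, where the shares over all probes were 7.75% and 8.29%. In the other direction, 6 and 7 were higher in CMT-U27, against 11.3% and 14.2% of all probes. PCOLCE, an enhancer of procollagen processing, had a mean log2 level of 4.93 in CMT-U27 against 11.4 in P114 and 11.8 in CMT-U309, and BMP1, the proteinase that it enhances, 5.13 against 8.42 and 8.58. TFPI2, an inhibitor of plasmin and of MMPs, was above background only in CMT-U309, at 10.4. The epithelial serine proteinase ST14 and its inhibitor SPINT2 were higher in CMT-U27, with log2 differences of -1.83 and -3.14 for P114 minus CMT-U27.

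The second comparison was between tumor cells that had shared medium with MDSCs and the same cells alone. With one value per line, the mean of the log2 ratios was tested against 0 in limma, and the thresholds were those of the methods, a fold above 2 together with an unadjusted p below 0.05. Of 54 members tested, 1 passed in the higher direction (MMP20) and 0 in the lower direction, where 1.03% and 0.191% of 40873 probes passed, or 1.22% in either direction. No member passed a Benjamini-Hochberg adjusted p of 0.05, and neither did any other probe (0.0%). At an unadjusted p under 0.05 there were 5 members (9.26%), with MMP20, ADAM22, MMP13 and PLAT among them, against 9.94% of all probes, so that their number does not set the members apart. The median ratio over the tested members was 0.08, beside 0.01 over all probes.

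MMP20, known from developing enamel, had log2 ratios of -0.78 and 1.48 on the P114 arrays with co-culture RNA in Cy5 and in Cy3, 1.53 and 1.95 in CMT-U27, and 0.72 and 2.98 in CMT-U309. Of 6 arrays 5 were higher in co-culture, and the P114 arrays went opposite ways. The mean was 1.32 ± 0.46 (SE, n = 3 lines, limma adjusted p = 0.498). Its probe was well above background in 0 of 12 channels, with log2 levels between 0.76 and 2.81 over the 6 RNA samples, so no fold is given. With normexp and loess the mean ratio was 0.052, and the methods' t-test of the same values did not pass it. Other members above background in no channel showed the same pattern over arrays, so it is not particular to MMP20. ADAM7, ADAM18, ADAM21, ADAM32, ADAMTS7, ADAMTS18, ADAMTS20 and MMP7 were also higher on 5 of 6 arrays, and their P114 arrays went opposite ways.

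PLAT had log2 ratios of 0.71 and 0.04 in P114, 0.61 and 0.21 in CMT-U27, and 0.69 and 0.05 in CMT-U309. All 6 arrays were above 0, those with co-culture RNA in Cy5 further than those with Cy3, and the mean was 0.38 ± 0.11 (limma adjusted p = 0.498), with 0.26 ± 0.12 at the second PLAT probe.

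MMP13 was split between lines. Its log2 ratios were -0.48 and -0.10 in P114, where its level was highest, 1.29 and 0.81 in CMT-U27, and 1.06 and 0.88 in CMT-U309, where it was not above background. The mean over the lines was 0.58 ± 0.25 (limma adjusted p = 0.498). ADAM22, a catalytically inactive ADAM of neurons, was below 0 on all 6 arrays, from -0.15 to -1.98, with a mean of -0.90 ± 0.29 (limma adjusted p = 0.498). It was above background in 6 of 12 channels, and a probe that overlaps it had a mean of -0.37 with 2 of 6 arrays above 0.

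The other members above background in all 12 channels with line means all of the same sign were ADAM9, ADAMTS4, TIMP3 and MMP2. Their ratios were small. ADAM9 was higher on all 6 arrays, between 0.08 and 0.38, with a mean of 0.19 ± 0.11 (limma adjusted p = 0.557). ADAMTS4 had a mean of 0.08 ± 0.12. TIMP3 was lower on 5 of 6 arrays with a mean of -0.13 ± 0.11, and MMP2 on 4 of 6 with -0.15 ± 0.17. The sign of MMP2 rests on CMT-U27, whose line mean was -0.46. The line means of CMT-U309 (-0.004) and P114 (-0.0007) were near 0, and the dye-swap arrays of each went opposite ways. A further MMP2 probe, above background in all 12 channels, had a mean of 0.34 ± 0.20. Its line means lay between 0.01 (P114) and 0.88 (CMT-U309). For TIMP3 and MMP2 the median over the gene's probes was on the other side of 0, at 0.063 and 0.12. Of those not above background in every channel, MMP11 was lower in all 3 lines (mean -0.53 ± 0.29, limma adjusted p = 0.528) but on only 3 of 6 arrays, ADAMTSL2 was likewise lower (-0.37 ± 0.32) and ADAMTS6 (0.36 ± 0.24) and ADAMTS16 (0.25 ± 0.33) higher. TIMP1, MMP14, PLAU, PLAUR and SERPINE2 had means between -0.032 and 0.30, none with an adjusted p under 0.05.

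**Figure D4:**
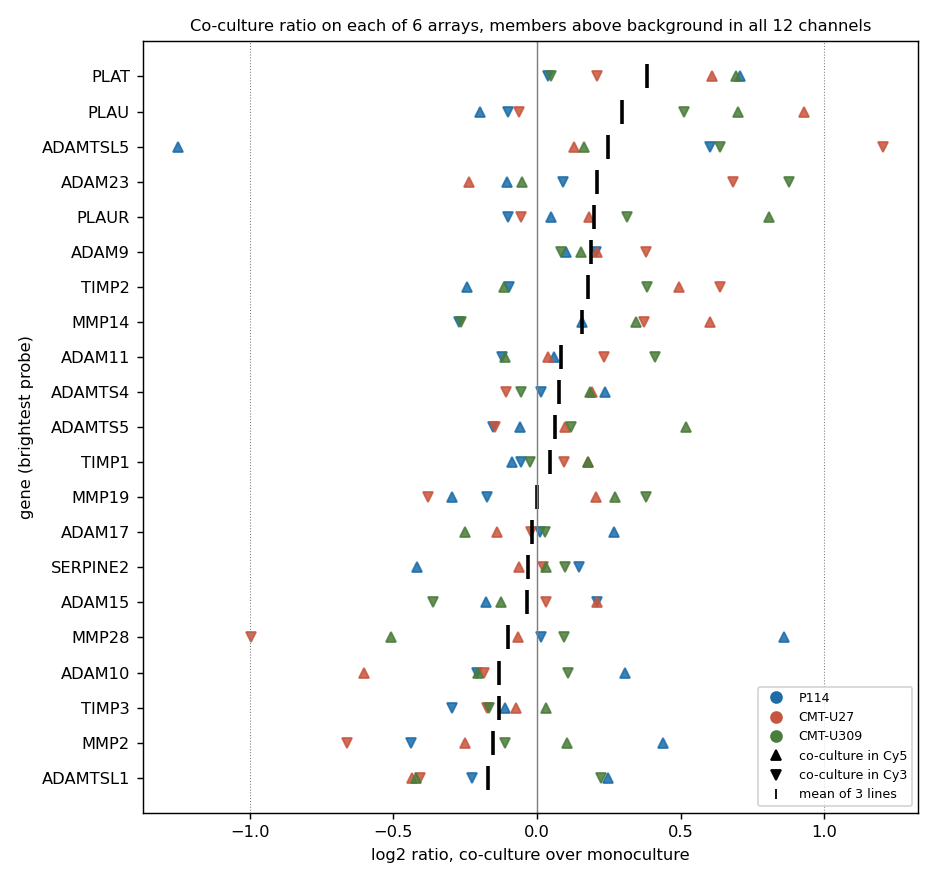
Log2 ratio of co-culture over monoculture on each of the 6 arrays for 21 members well above background in all 12 channels, by line (colour) and dye orientation (triangles), with the mean of the 3 lines as a bar and dotted lines at a fold of 2. The means run from -0.17 (ADAMTSL1) to 0.38 (PLAT), and most genes have arrays on both sides of 0.

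Within a line there is no replicate beyond the dye-swap, and no test. As a description, members were counted where all 4 channels of the line were above background and both arrays showed a ratio past 1.5-fold in the same direction. In P114, 1 of 29 members did so in the higher direction and 0 in the lower, against 0.348% and 0.985% of probes. In CMT-U27, 2 of 27 were higher (MMP13 and MMP9) and 0 lower, against 3.3% and 1.05%. In CMT-U309, 1 of 32 was higher and 1 (MMP1) lower, against 2.5% and 0.328%. MMP1 in CMT-U309 had ratios of -1.36 and -1.19, which took its log2 level from 7.71 in monoculture to 6.44 in co-culture. MMP9 in CMT-U27 had ratios of 1.33 and 0.96 at the second overlapping probe and 1.21 and 0.75 at the first. These probes are not independent, and another MMP9 probe went the other way. That probe, above background in 1 of 4 channels of CMT-U27, had ratios of 0.08 and -1.51 there. It was lower in all 3 lines, with a mean of -0.65 ± 0.25.

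From CMT-U27 and CMT-U309 alone, without P114, 7 of 54 members (12.96%) passed an adjusted p of 0.05, against 15.6% of all probes, of which 8.98% were higher and 6.58% lower. Of these, PLAU (mean log2 ratio 0.52), ADAMTSL5 (0.53) and PLAT (0.39) were above background in all 12 channels. The others were ADAMTS13 (-0.61, above background in 11 channels), ADAM22 (-1.09, in 6), MMP13 and MMP20. The arrays of a line did not always go the same way. PLAU had 0.93 and -0.06 in CMT-U27, and its second probe -0.28 and 0.48 in CMT-U309. With co-culture RNA in Cy5 and in Cy3, ADAMTSL5 had 0.13 and 1.20 in CMT-U27 and 0.16 and 0.64 in CMT-U309. ADAMTS13 had -0.03 and -1.14 in CMT-U27 and -0.15 and -1.12 in CMT-U309. MMP13 had no channel above background in CMT-U309, one of the lines averaged, and MMP20 in no line, so no size is given for them. The spread then rests on 2 lines, 1 of them CMT-U309, whose dye-swap arrays correlated at -0.09. The share of members lay below that of all probes.

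The co-culture RNA was also read for genes of the MDSCs themselves, which were on the far side of the insert. Of 16 myeloid genes listed, 13 had a probe, and 0 passed the thresholds for co-culture in either direction. Between 4 and 10 of them were above background per co-culture channel and between 4 and 9 per monoculture channel. The log2 of their summed levels ranged from 10.6 to 13.7 in co-culture and from 10.71 to 13 in monoculture. These ranges pool the lines and do not compare the cultures, because the sums differed by line. Over both cultures they ran from 12.95 to 13.75 in CMT-U27, from 10.63 to 10.92 in P114 and from 11.12 to 11.36 in CMT-U309. The mean log2 level of S100A8 alone was 13.06 in CMT-U27, 8.75 in P114 and 6.50 in CMT-U309. ITGAM (CD11b) and LYZ were above background in no channel, and PTPRC (CD45) was so in 1 channel of 6 with co-culture RNA and in 2 of 6 with monoculture RNA. S100A8, ITGB2 and CD68 were above background in all 12 channels, so also in the tumor cells grown alone. CYBB was so in 11 channels and S100A9 in 9, and the other genes were in part of the channels.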

How the data were processed

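RNA of 3 canine mammary tumor lines in co-culture and monoculture was read on 6 arrays of 2 colours. Per the file headers, the authors deposited the output of Agilent Feature Extraction 10.10.1.1 (the submitters' processing notes name 10.7.3.1), with a background-subtracted and dye-normalized processed signal intensity per spot and dye. They also deposited log10 ratios, which were checked against the scanner output and hold co-culture over monoculture. No depth exists for arrays, and the number of arrays limits the precision.

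Control and outlier spots were left out, channels were brought to the same median, spots of a probe were averaged, and only probes with a scaled intensity over 10 in some channel were tested (40873 of 43603). Fits used limma 3.58.1 (lmFit, eBayes with a trend) in R 4.3.3, with Benjamini-Hochberg adjustment over all probes. Tables and plots were made with Python, pandas and matplotlib. A gene is represented by its brightest probe. A bound sets the brighter group against the higher of each dim channel's own signal and its lowest signal well above background. It is not a strict lower limit, because probes not above background can have a higher signal than that.

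The replicate number in the labels marks the dye of the co-culture RNA. The difference between numbers 1 and 2 correlated between lines at 0.36, 0.58 and 0.48 for ratios, and at 0.0059, -0.16 and 0.32 for levels, so it pairs arrays by dye for ratios.

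Members and lists were chosen with earlier results of these data known. Named genes are MMP20, the gelatinases, MMP14, the TIMPs, RECK and the plasminogen activator genes, up to 10 members with the largest called difference per pair of lines, members past the thresholds in co-culture, and up to 5 in each direction with the largest ratio turned the same way in all 3 lines and above background in all 12 channels. MMP1 in CMT-U309, ADAM22, MMP13 and other members named beyond that rule were picked after their values were seen. The ADAMs were divided by textbook knowledge of their catalytic motif, and promoter motifs and proteins were not analysed here. Of the 58 symbols, 56 were found in the RefSeq gene table of another assembly, from which no coordinates were taken. The values of 1 member are not reported here, though it is counted. Sequences and canFam2 positions are those of the scanner files.

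Simulated data of 40873 probes served to check both fits. For co-culture, 100 of 100 probes changed by 1.5 and 100 of 100 changed by 2 (log2) passed the thresholds of the methods, with 27 unchanged probes. For P114 against CMT-U27, 98 of 100 changed by 2 and 100 of 100 changed by 4 were called, with 5 unchanged. The simulated call between lines used adjusted p and fold only, without the rule on channels above background. The simulated noise was independent between probes and held no dye effect, so these counts do not give the error rates of the real data. Alternatives were other background corrections and normalizations, the deposited log ratios, no scaling, no filter, only probes above background, no trend, the methods' t-test, a replicate block, outlier spots kept, each line and array left out, and the median over a gene's probes.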

Additional observations from a re-analysis of the deposited data

Results flagged for a closer look

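In 10 of 74 combinations of a gene and a pair of lines, with all 4 channels of both lines above background, both arrays of one line moved one way in co-culture and both arrays of the other line the opposite way. These differences were not tested. The share over all probes was not counted for this rule, so the number of combinations does not set the members apart. The difference between the line means of the log2 ratio was largest for MMP13, at -1.34 for P114 minus CMT-U27, followed by ADAMTS13 at 1.22 for P114 minus CMT-U309 and MMP28 at 0.97 for P114 minus CMT-U27. For P114 minus CMT-U27 it was also -0.74 for TIMP2, 0.22 for ADAM17 and -0.21 for TIMP1. For P114 minus CMT-U309 it was -0.76 for PLAU, -0.56 for MMP19 and -0.42 for ADAMTS5. For CMT-U27 minus CMT-U309 it was 0.36 for ADAM15. P114 was one of the lines in 9 of the 10.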

How the results depend on the processing

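The number of members higher in co-culture at the thresholds of the methods was 1, and it was 0 with normexp and loess, with only probes well above background (which leaves out MMP20) and with the methods' t-test. With a line or an array left out it ranged from 0 to 3. It was 3 without P114 (MMP20 and ADAMTS7, above background in no channel, and MMP13, in none of CMT-U309), and 0 without CMT-U27, without CMT-U309, or without the array of P114 or of CMT-U309 with co-culture RNA in Cy3, with MMP20 between 0.94 and 1.1 in these. The number lower ranged from 0 to 1, the member being ADAM22, without P114, without CMT-U309, or without 1 of 3 arrays. The number past an adjusted p of 0.05 ranged from 0 to 7, with 7 without P114. With normexp, loess and Aquantile, members higher in P114 than in CMT-U27 numbered 9 and the reverse 2, and those higher in CMT-U27 than in CMT-U309 numbered 2 and the reverse 11. The median over a gene's probes turned the co-culture ratio of MMP2 to 0.12 and of TIMP3 to 0.063. With a replicate block on 6 arrays the co-culture counts were 1 higher and 0 lower, and the counts between lines were 14 and 4, 5 and 6, and 4 and 17, so the block changed no call of the counts or of the named genes. The same 6 arrays without the block gave 1 and 0. Signal near background limits what can be said of members that were not above it in every channel.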
